A study of Danio rerio with 16 samples.

Results

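The transcripts described here are those of chromatin regulators and histones: 108 genes measured by 151 probe sets, out of 8793 genes with a symbol and 15502 probe sets tested. They were chosen by name alone, as every probe set annotated with a single symbol that begins like a histone (hist, h2a, h3f, h1f), a high mobility group protein (hmga, hmgb, hmgn), a histone deacetylase or sirtuin (hdac, sirt), a lysine demethylase (kdm), a lysine methyltransferase (kmt, setd, suv39), an arginine or DNA methyltransferase (prmt, dnmt), a subunit of Polycomb repressive complex 2 (ezh, suz12), a chromobox protein (cbx), a nucleosome remodeller or bromodomain protein (smarc, chd, baz, brd), an ING protein (ing) or ctcf. The rule uses no measured value, but earlier results of these data were known when the genes were chosen. Of these names, neither ctcf nor h1f matched a probe set with a single symbol. The largest families were the lysine methyltransferases with 14 genes, the high mobility group proteins with 13 and the lysine demethylases with 12. A rule on names also takes in enzymes whose best known substrates are not histones, among them hdac6, which acts on tubulin, the mitochondrial sirt3, and prmt3, which methylates a ribosomal protein.

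RNA came from whole dechorionated zebrafish embryos kept at 28 degrees, either homozygous for rad21 nz171, a mutant allele of the cohesin gene now named rad21a, or wild type. Embryos were collected at 24 and 48 hours post fertilization (hpf). Each of the 4 groups (mutant 24 hpf, wild type 24 hpf, mutant 48 hpf, wild type 48 hpf) was represented by 4 pools of 50 embryos, and each pool was hybridized to an Affymetrix zebrafish array of its own, which made 16 arrays. The allele is present in every cell of the mutants, so no single tissue carries the defect. In RNA from whole embryos, fewer cells of a kind and less RNA in each cell cannot be told apart.

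DNA in the nucleus is wound around histone proteins into nucleosomes. Enzymes write, erase and read chemical marks on histones and on DNA, and remodelling ATPases slide or evict nucleosomes. High mobility group proteins bind DNA or nucleosomes, and some of them bend DNA. Cohesin, the ring that rad21a helps to close, holds sister chromatids together after replication and gathers chromatin into loops. Several of the genes below, such as dnmt1, are made mostly in dividing cells. Messenger RNAs of the histones made for replication mostly end without a poly(A) tail, and the labelling used here primes from poly(A), so such messages can be missed by these arrays.

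Values are normalized probe set intensities, taken here to log2. A gene was represented by its probe set with the highest mean, and levels of different genes are not compared, because probe sets differ in brightness. Probe sets for 5 sequences foreign to the embryo read between 2.77 and 7.22 on the log2 scale (median 4.66), and 4 of them had group means of at most 5.38. Of the 108 genes, 84 had a group mean above 5.38 and 24 did not; 49 had none above 7.22, the brightest foreign reading. Of the 21 genes called between genotypes at either time, 7 were among these 49: chd1, dnmt3bb.3, hmgn1b, hdac9b, suz12a, setd7 and sirt2. No gene was filtered out. Groups were compared with limma, with Benjamini-Hochberg adjustment over all 15502 probe sets, and a gene was called where the adjusted p was under 0.05. All adjusted p-values below are from that fit, errors after ± are its standard errors on the log2 scale, errors of means are SD with n = 4, and all tests are two-sided.

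The targeted gene matched the labels in every array: rad21a was 12-fold lower in mutants at 24 hpf (log2 change -3.58 ± 0.17) and 15.2-fold lower at 48 hpf (-3.92 ± 0.17). Median intensities of the arrays lay between 45.5 and 48.1. The arrays least like their groups were mutant replicate 4 at 48 hpf (mean correlation with its group 0.983) and wild type replicate 1 at 24 hpf and wild type replicate 3 at 48 hpf (0.985 each). Mutant replicate 4 at 48 hpf was the lowest array of its group for 53 of the 108 genes. Wild type replicate 1 at 24 hpf was lowest for 49 of the 108, and wild type replicate 4 at 48 hpf for 39. Over all genes these arrays were, in that order, the lowest of their group in 39.3%, 29.5% and 16.6% of cases. For acta1, the control probes at the 3' end read above those at the 5' end, by a log2 gap that widens as RNA breaks. It ranged from 3.03 to 3.15 in wild types and from 3.57 to 3.78 in mutants at 24 hpf, and from 2.41 to 2.81 and from 3.39 to 4.08 at 48 hpf. The same gap for GAPDH ranged from 0.29 to 0.65 over all arrays, with groups that overlapped at both times. Markers of skeletal muscle, red cells, neurons, epidermis and lens all had group means above the median of the foreign sequences. The lens marker cryaa was close to that median at 24 hpf, at 4.84 in wild types and 4.78 in mutants. The part of RNA quality in the results below was not tested.

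At 24 hpf, 4 of the 108 genes were higher in mutants and 8 were lower. The genes that rose were hist2h2l, hdac9b, kdm1a and hmgn1b, and those that fell were dnmt1, baz1b, prmt7, dnmt3bb.3, prmt5, suz12a, prmt1 and chd1. At 48 hpf, 6 rose and 10 fell. The genes that rose were hist2h2l, hdac9b, setd7, h2ax, histh1l1 and sirt2, and those that fell were dnmt1, baz1b, prmt5, cbx2, hmgb1b, prmt7, ing4, prmt1, hmgb2b and cbx5. Apart from hist2h2l at both times, every called change was under 2-fold.

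As shares, 3.70% of the chromatin genes rose and 7.41% fell at 24 hpf, against 3.61% and 5.08% of all genes. At 48 hpf 5.56% rose and 9.26% fell, against 9.66% and 8.18% of all genes. No test of these shares against those of all genes was made. The counts of families and of partner lists below stand beside these same shares of all genes. The median log2 change of the 108 genes (0.02 at 24 hpf, -0.04 at 48 hpf) stood beside 0.00 and 0.03 for all genes. Single arrays moved these counts: the 12 calls at 24 hpf became 6 without mutant replicate 4 and 7 without wild type replicate 3 at that time, and the 16 at 48 hpf became 10 without wild type replicate 2 at that time. Weighting the arrays by quality gave 27 calls at 24 hpf, the 12 and 15 more, and 21 at 48 hpf. Without the 3 arrays least like their groups the counts were 18 and 17.

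Of the 12 genes called at 24 hpf and the 16 called at 48 hpf, 7 were called at both times in the same direction, which is 58.3% of the first set and 43.8% of the second. Over all genes 388 were called both times in 1 direction, 50.8% and 24.7% of the sets. The 7 genes were hist2h2l and hdac9b, which were higher, and dnmt1, baz1b, prmt5, prmt7 and prmt1, which were lower. In total 21 of the 108 chromatin genes were called at either time, beside 1937 of all 8793 genes. All of the 14 families held at least 1 of the 21 except the 10 SWI/SNF and ISWI subunits.

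**Figure D1:**
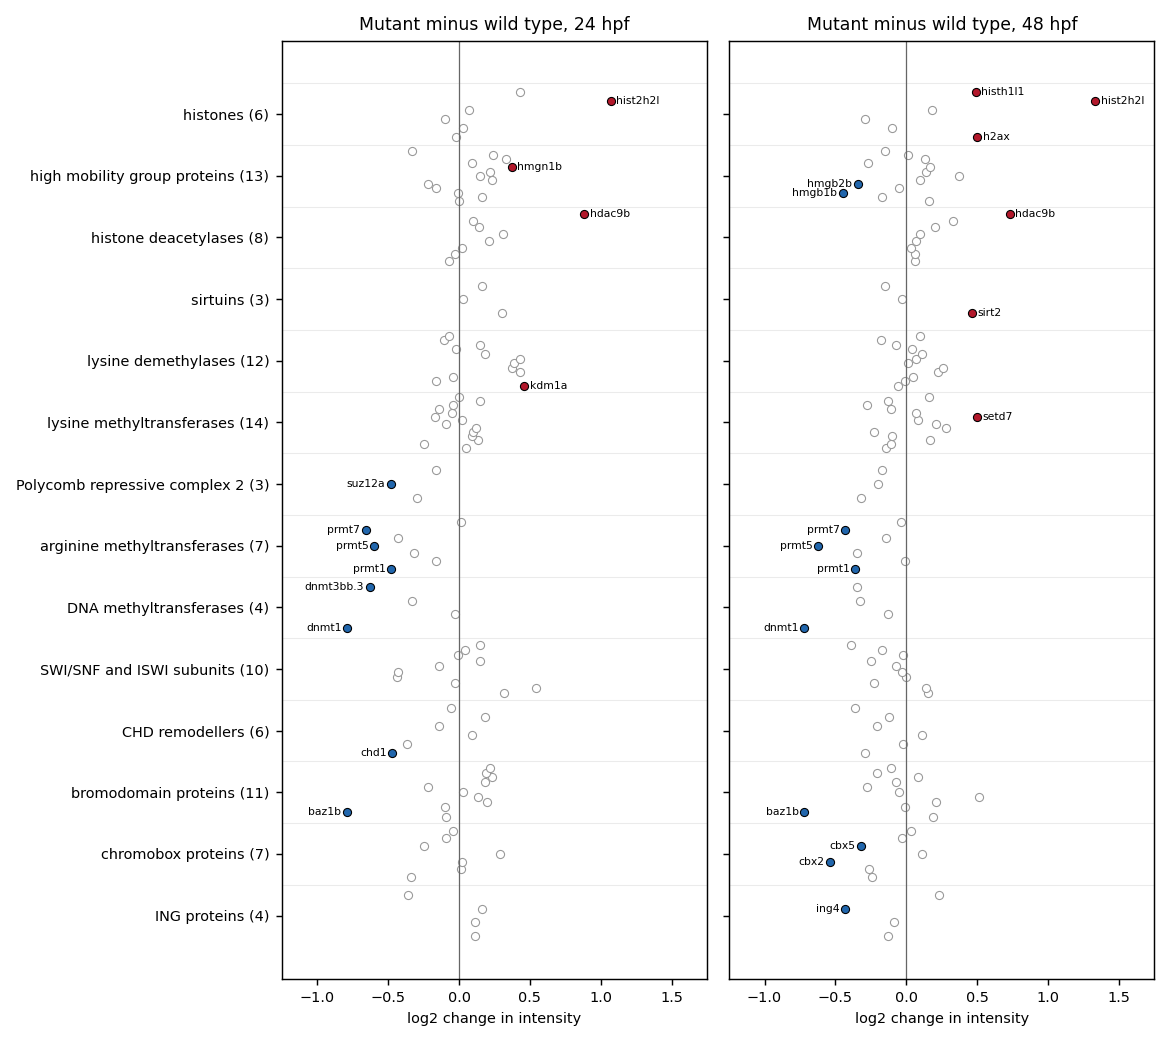
Log2 change of each of the 108 genes in mutants against wild types at 24 hpf (left) and 48 hpf (right), grouped by family with the number of genes in parentheses. Filled points were called at an adjusted p under 0.05 (red higher, blue lower) and open points were not. The gene hist2h2l lies farthest to the right at both times (1.07 and 1.33), and the called arginine and DNA methyltransferases all lie to the left of 0.

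Among the 6 histones, 1 rose at 24 hpf and 3 rose at 48 hpf, and none fell. The rises were 16.7% and 50% of the family, beside 3.61% and 9.66% of all genes. The largest change of any chromatin gene was that of the histone gene hist2h2l. Its log2 intensities at 24 hpf were 9.11, 9.11, 9.16 and 9.11 in wild types against 9.99, 10.03, 10.12 and 10.65 in mutants. At 48 hpf they were 9.23, 8.93, 9.51 and 8.86 in wild types against 10.32, 10.30, 10.38 and 10.83 in mutants. Every mutant array lay above every wild type array at both times, with mutant replicate 4 the highest of its group each time. The gene was 2.1-fold higher at 24 hpf (log2 change 1.07 ± 0.16, adjusted p = 0.000591) and 2.51-fold higher at 48 hpf (1.33 ± 0.16, adjusted p = 2.38e-05). A second probe set of hist2h2l, with group means of at most 3.61, below the median of the foreign sequences, read 0.23 ± 0.15 and 0.34 ± 0.15 and was not called (adjusted p = 0.435 and 0.133).

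The linker histone histh1l1, which binds where DNA enters and leaves the nucleosome, read 11.40, 10.80, 11.34 and 10.71 in wild types against 11.49, 11.50, 11.46 and 11.75 in mutants at 48 hpf. The mutants lay above the wild types, but wild type replicates 1 and 3 came close to them. It rose by 0.49 ± 0.15 (adjusted p = 0.035), a call that ended without any 1 of mutant replicates 2, 3 or 4 or wild type replicates 2 or 4 at that time (adjusted p up to 0.114). It also ended under cyclic loess scaling (0.0737), with arrays centred on the median (0.0503) and in a fit of the 48 hpf arrays alone (0.083). The values at 24 hpf did not overlap either, at 11.06 to 11.39 in wild types and 11.52 to 11.96 in mutants, with a log2 change of 0.43 ± 0.15 that was not called (adjusted p = 0.0942).

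The variant H2A.X, encoded by h2ax, is the histone that becomes phosphorylated around DNA breaks. At 24 hpf it read 8.58, 8.64, 8.55 and 8.39 in wild types against 8.66, 8.41, 8.42 and 8.60 in mutants, which overlapped (-0.02 ± 0.12, adjusted p = 0.972). At 48 hpf it read 8.20, 8.44, 8.63 and 8.46 in wild types against 8.95, 9.24, 8.87 and 8.66 in mutants. All mutant arrays were above all wild type arrays at 48 hpf, and the gene rose by 0.50 ± 0.12 (adjusted p = 0.00866). The difference between its changes at the 2 times was 0.51 ± 0.17 and did not pass (adjusted p = 0.183).

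The other 3 histones were not called between genotypes. The variant gene h2az2b, whose product H2A.Z marks promoters, read 0.03 ± 0.08 and -0.10 ± 0.08 (adjusted p = 0.905 and 0.435). The replacement histone H3.3 gene h3f3d, which supplies H3 outside replication, read -0.10 ± 0.12 and -0.29 ± 0.12 (adjusted p = 0.724 and 0.113). At 48 hpf its 4 mutant arrays (10.99 to 11.13) were all below its wild type arrays (11.30 to 11.47). The H2A gene hist1h2a6, measured by a probe set of the class whose probes may match other transcripts, read 0.07 ± 0.11 and 0.18 ± 0.11 at levels within the range of the foreign sequences, with group means from 4.36 to 4.54.

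**Figure D2:**
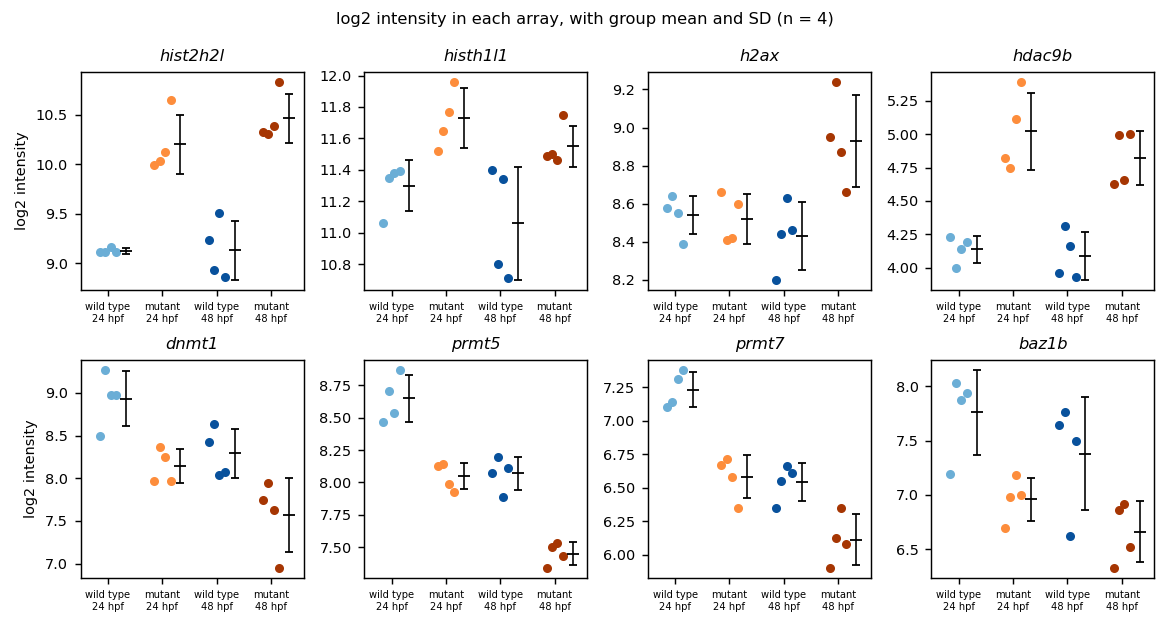
Log2 intensity of 8 genes in each of the 16 arrays (points, replicates 1 to 4 from left to right within a group), with the group mean and SD as a bar beside them (n = 4); each panel has its own vertical axis. For hist2h2l and hdac9b all mutant arrays lie above all wild type arrays of the same age, and for prmt5 and dnmt1 all lie below. In baz1b the wild type array lowest at each time (7.19 and 6.62) comes down to the level of the mutants.

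Of the 4 DNA methyltransferases, 2 fell at 24 hpf and 1 at 48 hpf, and all 4 read below 0 at both times (median -0.48 and -0.34). The falls were 50% and 25% of the family, beside 5.08% and 8.18% of all genes. The maintenance enzyme dnmt1, which copies methylation onto newly replicated DNA, read 8.49, 9.27, 8.97 and 8.98 in wild types against 7.97, 8.36, 8.25 and 7.97 in mutants at 24 hpf. A day later it read 8.42, 8.63, 8.04 and 8.07 against 7.75, 7.94, 7.63 and 6.95. The groups did not overlap at either time, and mutant replicate 4 was far below the other mutants at 48 hpf. The gene was 1.73-fold lower at 24 hpf (-0.79 ± 0.20, adjusted p = 0.024) and 1.65-fold lower at 48 hpf (-0.72 ± 0.20, adjusted p = 0.0214). The call at 24 hpf ended without mutant replicates 1 or 4 or wild type replicates 2, 3 or 4 at that time (adjusted p up to 0.0829), and that at 48 hpf without mutant replicate 4 or wild type replicates 1 or 2 (up to 0.0764).

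The other 3 DNA methyltransferases set new methylation and belong to the Dnmt3b class. The gene dnmt3bb.3 read 5.29, 5.04, 4.96 and 5.17 in wild types against 4.52, 4.53, 4.62 and 4.26 in mutants at 24 hpf, with no overlap. It fell by 0.63 ± 0.13 (adjusted p = 0.00772), and all of its values lay within the range of the foreign sequences. Except in wild types at 24 hpf (5.11), its group means were below the foreign median. At 48 hpf it read -0.35 ± 0.13 (adjusted p = 0.0893). Its neighbour on the chromosome dnmt3bb.2, the only pair of adjacent genes among the 108, read -0.33 ± 0.20 at both times (adjusted p = 0.383 and 0.301). The remaining gene, dnmt3ba, read -0.03 ± 0.20 and -0.13 ± 0.20 (adjusted p = 0.969 and 0.735).

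Beside these stood 6 measured partners of DNA methylation, of 15 listed, of which 2 fell at 24 hpf (33.3%, beside 5.08% of all genes), and 3 fell and 1 rose at 48 hpf (50% and 16.7%, beside 8.18% and 9.66%). The gene uhrf1, whose product brings Dnmt1 to half-methylated DNA, fell at 48 hpf (-1.02 ± 0.17, adjusted p = 0.000615). The remodeller gene hells fell at 24 hpf (-0.87 ± 0.26, adjusted p = 0.0476), a call that ended without any 1 of 13 arrays (adjusted p up to 0.133). The gene ahcy, which clears the by-product of methylation reactions, fell at 48 hpf (-0.40 ± 0.09, adjusted p = 0.00401), as did mat2aa, which makes the methyl donor (-0.81 ± 0.25, adjusted p = 0.04; ended without any 1 of 8 arrays, up to 0.135). The stress-responsive gadd45ba fell at 24 hpf (-0.78 ± 0.20, adjusted p = 0.0232; ended without any 1 of 5 arrays, up to 0.0764), and its relative gadd45aa rose at 48 hpf (1.48 ± 0.34, adjusted p = 0.00607). The 4 mutant arrays of gadd45aa read 4.40, 4.39, 5.12 and 6.65, the wild types lay below the median of the foreign sequences, and without mutant replicate 4 the change was 0.97. All group means of gadd45ba lay within the range of the foreign sequences.

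Of the 7 arginine methyltransferases, 3 fell at each time, the same 3 genes, and none rose. The falls were 42.9% of the family, beside 5.08% of all genes at 24 hpf and 8.18% at 48 hpf. The gene prmt5, which makes symmetric dimethylarginine on histones and splicing proteins, read 8.47, 8.71, 8.54 and 8.87 in wild types against 8.13, 8.14, 7.99 and 7.93 in mutants at 24 hpf. In the older embryos it read 8.07, 8.20, 7.89 and 8.11 against 7.34, 7.5, 7.53 and 7.43. No mutant array reached a wild type array of its age, and the mutants at 24 hpf were near the wild types at 48 hpf. The change was nearly equal at the 2 times, 1.52-fold lower at 24 hpf (-0.60 ± 0.10, adjusted p = 0.00152) and 1.53-fold at 48 hpf (-0.62 ± 0.10, adjusted p = 0.000466), with a difference of -0.01 ± 0.14 (adjusted p = 0.988).

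The gene prmt7, which makes monomethylarginine, read 7.10, 7.14, 7.31 and 7.38 in wild types against 6.67, 6.71, 6.58 and 6.35 in mutants at 24 hpf, without overlap. At 48 hpf it read 6.35, 6.55, 6.66 and 6.61 against 5.90, 6.12, 6.35 and 6.08, where mutant replicate 3 reached the lowest wild type. It fell by 0.66 ± 0.11 (adjusted p = 0.00176) and 0.43 ± 0.11 (adjusted p = 0.0151). The call at 48 hpf ended when the 3 arrays least like their groups were left out together (-0.38, adjusted p = 0.0563). Except in wild types at 24 hpf (7.23), the group means of prmt7 lay within the range of the foreign sequences.

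The main enzyme for asymmetric dimethylarginine, prmt1, fell by 0.48 ± 0.12 at 24 hpf (adjusted p = 0.0189), from 11.16 to 11.47 in wild types to 10.68 to 11.05 in mutants. It fell by 0.36 ± 0.12 at 48 hpf (adjusted p = 0.045), where mutant replicate 1 (10.46) lay among the wild types (10.35 to 10.72). Its call at 24 hpf ended without mutant replicates 3 or 4 or wild type replicate 3 at that time (adjusted p up to 0.0659). The call at 48 hpf ended without any 1 of 10 arrays: mutant replicates 2, 3 and 4 and wild type replicates 1, 2 and 4 at 48 hpf, and mutant replicates 1 and 3 and wild type replicates 3 and 4 at 24 hpf (adjusted p up to 0.135), and in a fit of the 48 hpf arrays alone (0.0919). The 4 other arginine methyltransferases were not called, and ranged from -0.43 for prmt6 (adjusted p = 0.118) to 0.01 at 24 hpf and from -0.35 to -0.01 at 48 hpf.

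The writers of the Polycomb mark on lysine 27 of histone H3 were represented by 3 genes of Polycomb repressive complex 2. Of these suz12a, a scaffold subunit, fell at 24 hpf. It read 6.29, 6.23, 6.03 and 6.18 in wild types against 5.78, 5.57, 5.80 and 5.66 in mutants, without overlap (-0.48 ± 0.12, adjusted p = 0.0196). The call ended without mutant replicates 2 or 4 or wild type replicate 2 at that time (adjusted p up to 0.0572), and at 48 hpf the gene read -0.20 ± 0.12 (adjusted p = 0.284). The catalytic subunit gene ezh2 read -0.30 ± 0.13 and -0.32 ± 0.13 (adjusted p = 0.184 and 0.111). Of its other probe sets, 1 read -0.69 ± 0.25 and -0.34 ± 0.25 (not called), and 1 with group means of at most 3.44, below the median of the foreign sequences, read 0.14 ± 0.09 at 48 hpf. The paralogue suz12b read -0.16 ± 0.15 and -0.17 ± 0.15 (adjusted p = 0.648 and 0.516).

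Chromobox proteins read methylated histone H3. None of the 7 was called at 24 hpf, where they ranged from -0.34 to 0.29, and 2 fell at 48 hpf. The Polycomb reader gene cbx2 read 7.88, 7.55, 7.70 and 7.83 in wild types against 7.83, 7.89, 7.55 and 7.77 in mutants at 24 hpf, which overlapped throughout (0.02 ± 0.13, adjusted p = 0.964). A day later it read 7.85, 7.49, 7.81 and 7.28 against 7.17, 6.88, 7.19 and 7.01, with all mutants lower. It fell 1.46-fold at 48 hpf (-0.54 ± 0.13, adjusted p = 0.00783). The difference between its changes at the 2 times was -0.56 ± 0.18 and did not pass (adjusted p = 0.17).

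The heterochromatin protein gene cbx5, whose product HP1 alpha binds methylated lysine 9, fell at 48 hpf from 10.16 to 10.42 in wild types to 9.85 to 10.03 in mutants (-0.32 ± 0.10, adjusted p = 0.0424). Its call ended without any 1 of 9 arrays, the 4 mutants and wild type replicates 1, 2 and 3 at 48 hpf and wild type replicates 2 and 4 at 24 hpf (adjusted p up to 0.125). A second probe set of cbx5 read -0.13 ± 0.11 and was not called. The call ended too with arrays quantile normalized again (adjusted p = 0.0546), with the median over both probe sets (0.136) and in a fit of the 48 hpf arrays alone (0.0615). The other 5 chromobox genes ranged from -0.26 for cbx1b to 0.11 for cbx3b at that time.

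Of 13 measured partners of the Polycomb complexes, from 27 listed, 1 rose and 1 fell at 24 hpf (7.69% each, beside 3.61% and 5.08% of all genes) and 3 fell at 48 hpf (23.1%, beside 8.18%). The histone-binding subunit gene rbbp4, shared by Polycomb, deacetylase and assembly complexes, fell at both times (-0.53 ± 0.14, adjusted p = 0.0342, and -0.60 ± 0.14, adjusted p = 0.00902). Its call at 24 hpf ended without any 1 of 7 arrays (adjusted p up to 0.113). The 2 genes for Rybp, a subunit of the first Polycomb complex, moved in different directions. Both had group means within the range of the foreign sequences. Of these, rybpb rose at 24 hpf (1.05 ± 0.18, adjusted p = 0.00164) and rybpa fell at 48 hpf (-0.49 ± 0.09, adjusted p = 0.0013). Except in mutants at 24 hpf (4.8), the group means of rybpb were below the foreign median. The polyhomeotic gene phc2a fell at 48 hpf (-0.29 ± 0.08, adjusted p = 0.0255; ended without any 1 of 3 arrays, up to 0.0872).

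Of the 14 lysine methyltransferases, 0 were called at 24 hpf, where 3.61% of all genes rose and 5.08% fell. At 48 hpf 1 rose and 0 fell (7.14% and 0%, beside 9.66% and 8.18% of all genes). At 24 hpf they ranged from -0.25 for kmt2ba to 0.15 for setdb2, with a lowest adjusted p of 0.327. The gene called was setd7, whose product puts a single methyl group on lysine 4 of histone H3 and on other proteins. It read 6.56, 6.14, 5.95 and 6.21 in wild types against 6.11, 5.89, 6.07 and 6.12 in mutants at 24 hpf, and 5.6, 5.6, 5.82 and 5.81 against 6.23, 6.01, 6.20 and 6.39 at 48 hpf. The groups overlapped at 24 hpf (-0.17 ± 0.12, adjusted p = 0.504) and did not at 48 hpf, where setd7 rose 1.42-fold (0.50 ± 0.12, adjusted p = 0.00826). The difference between the times was 0.67 ± 0.17, with an adjusted p of 0.0621.

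Among 14 measured partners of the lysine 4 methyltransferase complexes, from 17 listed, none was called at 24 hpf and 3 fell at 48 hpf: hcfc1a (-0.64 ± 0.15, adjusted p = 0.00849), men1, which encodes menin (-0.50 ± 0.12, adjusted p = 0.00766), and cxxc1b, which binds unmethylated CpG (-0.50 ± 0.13, adjusted p = 0.0115). None of these calls ended without any single array. All group means of men1 and cxxc1b lay within the range of the foreign sequences. In mutants at 48 hpf the mean of men1 was below the foreign median. Of 8 other histone methyl enzymes measured, from 23 listed, the lysine 36 methyltransferase gene nsd1a fell at both times (-0.74 ± 0.13, adjusted p = 0.0023, and -0.42 ± 0.13, adjusted p = 0.0414). Its call at 48 hpf ended without any 1 of 8 arrays (adjusted p up to 0.127).

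Of the 12 lysine demethylases, 1 rose at 24 hpf and none was called at 48 hpf. This was kdm1a, which removes methyl groups from lysine 4 of histone H3. Its values at 24 hpf were 9.30, 9.70, 9.69 and 9.72 in wild types against 9.98, 10.03, 10.12 and 10.10 in mutants, and at 48 hpf 9.83, 9.81, 9.63 and 9.61 against 9.70, 9.83, 9.63 and 9.49. The groups were apart at 24 hpf, where wild type replicate 1 was the lowest array by far, and overlapped fully at 48 hpf. The gene was 1.37-fold higher at 24 hpf (0.46 ± 0.11, adjusted p = 0.0139) and read -0.06 ± 0.11 at 48 hpf (adjusted p = 0.77). The difference between the times was -0.52 ± 0.15 and did not pass (adjusted p = 0.108). The other 11 demethylases ranged from -0.16 to 0.43 at 24 hpf, and all 12 from -0.18 to 0.26 at 48 hpf.

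Of the 8 histone deacetylases, 1 was higher at both times and 7 were not called. The class IIa gene hdac9b, whose product represses targets of Mef2 transcription factors, read 4.23, 4.00, 4.14 and 4.19 in wild types against 4.82, 4.75, 5.11 and 5.39 in mutants at 24 hpf. At 48 hpf it read 3.96, 4.31, 4.16 and 3.93 against 4.63, 4.99, 4.66 and 5.0. The groups did not overlap at either time, although the whole range lay within that of the foreign sequences. The wild type means, 4.14 at 24 hpf and 4.09 at 48 hpf, were below the foreign median. The gene hdac9b was 1.84-fold higher at 24 hpf (0.88 ± 0.14, adjusted p = 0.000902) and 1.66-fold higher at 48 hpf (0.73 ± 0.14, adjusted p = 0.00164).

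The class I deacetylase gene hdac1, the catalytic subunit of the NuRD and Sin3 complexes, read 11.32 to 11.47 in wild types and 11.20 to 11.47 in mutants at 24 hpf (-0.07 ± 0.12, not called). In the older embryos it read 0.06 ± 0.12 (adjusted p = 0.811). The gene hdac8, whose human product removes acetyl groups from the cohesin subunit SMC3, read 0.10 ± 0.13 and 0.33 ± 0.13 (adjusted p = 0.771 and 0.104), the highest of the uncalled deacetylases at 48 hpf. Of 14 measured partners in deacetylase complexes, from 23 listed, mta2 fell at 48 hpf (-0.47 ± 0.15, adjusted p = 0.0391; ended without any 1 of 7 arrays, up to 0.126) and none was called at 24 hpf. The shared subunit gene rbbp4, which fell at both times (-0.53 and -0.60), was counted with the Polycomb partners and not in this list. The 9 measured acetyltransferases, from 19 listed, had no call at 24 hpf, and hat1 (-0.47 ± 0.16, adjusted p = 0.0473) and kat7b (-0.45 ± 0.13, adjusted p = 0.029) fell at 48 hpf. Without mutant replicate 4 of that age the change of hat1 was -0.31. These 2 calls ended without any 1 of 12 and 5 arrays, with adjusted p up to 0.142 and 0.103.

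Sirtuins are deacetylases that consume NAD. The probe sets held 3 of them and none for sirt1. The gene sirt2, whose product works on tubulin and on histone H4, read 6.52, 6.37, 6.56 and 6.67 in wild types against 6.80, 6.99, 7.06 and 7.13 in mutants at 48 hpf, without overlap. It rose 1.38-fold (0.46 ± 0.10, adjusted p = 0.00491). At 24 hpf the groups were apart as well, at 6.51 to 6.87 and 6.88 to 7.11, with a log2 change of 0.30 ± 0.10 that was not called (adjusted p = 0.0914). The other two ranged from -0.15 to 0.16 over both times.

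None of the 10 SWI/SNF and ISWI genes, remodelling ATPases and their subunits, was called at either time. Of all genes, 3.61% rose and 5.08% fell at 24 hpf, and 9.66% rose and 8.18% fell at 48 hpf. The 10 genes ranged from -0.44 to 0.54 at 24 hpf and from -0.39 to 0.15 at 48 hpf. The 2 ends of the range at 24 hpf were smarca5, the ISWI ATPase gene, at -0.44 ± 0.17 (adjusted p = 0.13), and smarca2, which encodes the Brahma ATPase, at 0.54 ± 0.17 (adjusted p = 0.0667). The groups of both were apart, at 10.12 to 10.38 in wild types and 9.63 to 9.95 in mutants for smarca5 and at 5.21 to 5.74 and 5.88 to 6.40 for smarca2. A second probe set of smarca2 was called at 24 hpf (0.32 ± 0.09, adjusted p = 0.0322). Both probe sets of smarca2 had group means within the range of the foreign sequences. The Brg1 gene smarca4a read -0.03 ± 0.20 and -0.23 ± 0.20 (adjusted p = 0.969 and 0.513), and its wild type replicate 1 at 24 hpf (9.32) was far below the other three (10.21 to 10.36).

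Of the 11 bromodomain genes, which read acetylated histones, baz1b fell at both times and 10 were not called. The product of baz1b pairs with the ISWI ATPase and acts at replication forks. It read 7.19, 8.03, 7.87 and 7.94 in wild types against 6.70, 6.98, 7.18 and 7.0 in mutants at 24 hpf, and 7.64, 7.76, 6.62 and 7.5 against 6.33, 6.86, 6.92 and 6.52 at 48 hpf. In each age a single wild type array, replicate 1 at 24 hpf and replicate 3 at 48 hpf, stood at or among the mutants. The fall was 0.79 ± 0.23 (adjusted p = 0.0425) and 0.72 ± 0.23 (adjusted p = 0.0393). The call at 24 hpf ended without any 1 of 9 arrays, the 4 mutants and wild type replicates 2, 3 and 4 of that age and, of the older arrays, mutant replicate 2 and wild type replicate 4 (adjusted p up to 0.121). That at 48 hpf ended without mutant replicates 1 or 4 or wild type replicates 1, 2 or 4 of that age (up to 0.123). Both ended with 16 added before the log2 (adjusted p = 0.0581 and 0.0595), and the second in a fit of the 48 hpf arrays alone (0.0725).

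Of the 6 CHD remodellers, chd1, which binds methylated lysine 4, fell at 24 hpf from 6.42 to 6.76 in wild types to 5.95 to 6.21 in mutants (-0.47 ± 0.12, adjusted p = 0.02). Its call ended without mutant replicate 4 or wild type replicates 2 or 3 at that time (adjusted p up to 0.0727), a second probe set read -0.32 ± 0.12 (adjusted p = 0.111), and at 48 hpf it read -0.29 ± 0.12 (adjusted p = 0.1). The other 5 ranged from -0.37 for chd1l to 0.18 at 24 hpf. Among 15 measured INO80, SRCAP and BAF partners, from 33 listed, actl6a, an actin-related subunit of progenitor BAF complexes, fell at both times (-0.59 ± 0.14, adjusted p = 0.0148, and -0.53 ± 0.14, adjusted p = 0.0136). Its call at 24 hpf ended without 1 array (adjusted p = 0.0572). The BAF subunit gene bcl7ba rose at 48 hpf (0.97 ± 0.13, adjusted p = 4.89e-05), and the difference between its changes at the 2 times was 0.82 (adjusted p = 0.0285; ended without any 1 of 7 arrays, up to 0.0651). At 48 hpf rad54l2 fell (-0.46 ± 0.14, adjusted p = 0.04; ended without any 1 of 6 arrays, up to 0.139). All group means of bcl7ba and rad54l2 lay within the range of the foreign sequences.

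Of the 13 high mobility group genes, 1 rose at 24 hpf and 2 fell at 48 hpf. The nucleosome-binding gene hmgn1b rose at 24 hpf from 4.69 to 4.88 in wild types to 4.99 to 5.29 in mutants (0.37 ± 0.11, adjusted p = 0.0444), at levels within the range of the foreign sequences. Its call ended without any 1 of 10 arrays: all 4 wild types and mutant replicates 1, 3 and 4 at 24 hpf, and mutant replicate 3 and wild type replicates 2 and 4 at 48 hpf (adjusted p up to 0.139), and with an intensity trend and robust prior (0.0651). The DNA-bending gene hmgb1b fell at 48 hpf, where it read 11.55, 11.62, 11.81 and 11.45 in wild types against 11.15, 11.24, 11.18 and 11.07 in mutants. The groups were well apart (-0.45 ± 0.10, adjusted p = 0.00659), whereas at 24 hpf they overlapped (-0.01 ± 0.10, not called). The difference between the times did not pass (-0.44 ± 0.15, adjusted p = 0.19).

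Its relative hmgb2b fell by 0.34 ± 0.11 at 48 hpf (adjusted p = 0.0499), from 11.41 to 11.68 in wild types to 10.90 to 11.45 in mutants, with mutant replicate 2 among the wild types. That call ended under 5 other settings, with adjusted p up to 0.211 without the 3 arrays least like their groups (-0.20), and without any 1 of 13 arrays (up to 0.153), the exceptions being wild type replicates 1 and 2 at 24 hpf and mutant replicate 2 at 48 hpf. The other 11 high mobility group genes ranged from -0.27 to 0.37 at that time.

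The ING proteins recruit acetyltransferase and deacetylase complexes to methylated lysine 4. Of 4 measured, ing4 fell at 48 hpf. It read 8.80, 8.57, 8.77 and 8.93 in wild types against 8.85, 9.0, 8.85 and 9.0 in mutants at 24 hpf, and 9.41, 9.35, 9.12 and 9.22 against 8.80, 8.84, 8.94 and 8.80 at 48 hpf. The mutants overlapped with the wild types at 24 hpf (0.16 ± 0.09, adjusted p = 0.378) and lay below them at 48 hpf (-0.43 ± 0.09, adjusted p = 0.00465). A second probe set of ing4, with group means from 3.66 to 3.86, below the median of the foreign sequences, read -0.07 ± 0.10 at 48 hpf and was not called, and with the median over both probe sets the change was -0.25 (adjusted p = 0.0527). The other 3 ranged from -0.36 to 0.11 at 24 hpf and from -0.13 to 0.23 at 48 hpf.

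The difference between the genotype changes at the 2 times was then tested itself. Of the 108 genes, ing4 passed, with a difference of -0.59 ± 0.13 (adjusted p = 0.0347), and none passed in the other direction. As shares this was 0.926% lower and 0% higher, against 1.03% and 0.773% of all genes. The call of ing4 ended without any 1 of 11 of the 16 arrays (adjusted p up to 0.0838), the exceptions being, at 24 hpf, mutant replicate 1 and wild type replicate 4, and, at 48 hpf, mutant replicate 3 and wild type replicates 3 and 4. The call also ended with an intensity trend and robust prior (adjusted p = 0.0639) and with the median over both probe sets (0.193). The second probe set, at levels below the median of the foreign sequences, gave -0.10 ± 0.14 (adjusted p = 0.841). The genes setd7, kdm1a, cbx2, h2ax and hmgb1b, each called at 1 time alone, are thus not shown to differ between the times in this fit. With array weights the difference was called for h2ax, kdm1a and setd7 too, and with the replicate block for setd7.

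**Figure D3:**
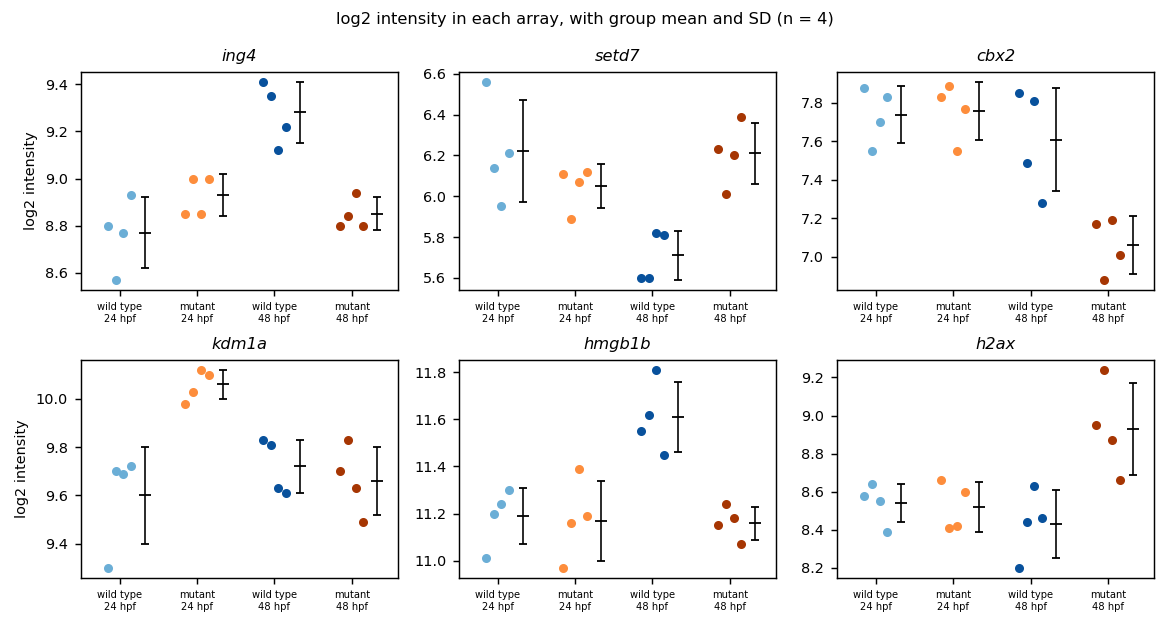
Log2 intensity in each array (points, replicates 1 to 4 from left to right within a group) with the group mean and SD (bars, n = 4) of 6 genes called at 1 of the 2 times; each panel has its own vertical axis. The mutant and wild type arrays overlap at 24 hpf and are apart at 48 hpf for ing4, setd7, cbx2, hmgb1b and h2ax, and the reverse holds for kdm1a. Of these differences between the times, that of ing4 passed the test (-0.59).

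Over the day from 24 to 48 hpf most of the called chromatin genes fell. In wild types 31 of the 108 fell and 7 rose (28.7% and 6.48%), against 21.7% and 14.4% of all genes, and the median log2 change was -0.16 against -0.06. In mutants 34 fell and 2 rose (31.5% and 1.85%), against 15.4% and 12.6% of all genes, with a median of -0.19 against -0.02. Of these, 25 were called in both genotypes in the same direction, 24 lower and 1 higher, which is 65.8% of the 38 called in wild types and 69.4% of the 36 called in mutants. Over all genes 1703 were shared in this way, 53.7% and 69.1% of the sets. None of the 108 was called in opposite directions.

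The DNA methyltransferases fell together, 4 of 4 in wild types and 3 of 4 in mutants (100% and 75%, beside 21.7% and 15.4% of all genes). The gene dnmt3ba read 9.45, 9.43, 9.15 and 9.41 in wild types at 24 hpf and 8.43, 8.58, 8.15 and 8.34 at 48 hpf, and in mutants 9.54, 9.46, 9.14 and 9.19 and then 8.78, 8.48, 8.22 and 7.51. It fell by 0.98 ± 0.20 in wild types (adjusted p = 0.00108) and by 1.09 ± 0.20 in mutants (adjusted p = 0.00071). Its relative dnmt3bb.2 fell by 1.01 ± 0.20 and 1.00 ± 0.20, with every group mean within the range of the foreign sequences, and dnmt1 by 0.64 ± 0.20 and 0.57 ± 0.20 (adjusted p = 0.023 and 0.0499). The dnmt1 calls ended without any 1 of 4 arrays in wild types (up to 0.0786) and 10 in mutants (up to 0.172), and without mutant replicate 4 at 48 hpf the change in mutants was -0.36. For dnmt3bb.3 the changes were -0.56 ± 0.13 (adjusted p = 0.00431) and -0.27 ± 0.13, the latter not called (adjusted p = 0.155).

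Arginine methyltransferases also fell, 6 of 7 in each genotype (85.7%, beside 21.7% of all genes in wild types and 15.4% in mutants). The largest fall was that of prmt3, from 5.87 to 6.51 in wild types at 24 hpf to 4.99 to 5.39 at 48 hpf (-0.93 ± 0.16, adjusted p = 0.000297) and from 5.57 to 6.09 to 4.70 to 5.09 in mutants (-0.96 ± 0.16, adjusted p = 0.000363). These values all lay within the range of the foreign sequences. For prmt1 the changes were -0.77 ± 0.12 and -0.65 ± 0.12 (adjusted p = 9.84e-05 and 0.000665). The 7th gene, prmt8b, rose in wild types (0.30 ± 0.10, adjusted p = 0.0382; ended without any 1 of 6 arrays, up to 0.104). Both prmt8b and prmt2, which is among those that fell, had every group mean under the foreign median. The call of prmt6 in mutants ended without any 1 of 10 arrays (up to 0.14).

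In the high mobility group family 7 of 13 fell in each genotype (53.8%, beside 21.7% and 15.4% of all genes). They were the same 7: hmga1a, hmgb2a, hmgb2b, hmgb3b, hmgn1a, hmgn6 and hmgn7. In wild types the call of hmgb2b ended without any 1 of 5 arrays (adjusted p up to 0.089), and in mutants those of hmgb3b and hmgn7 without any 1 of 4 and 8 (up to 0.0884 and 0.144). Not all probe sets of hmga1a and hmgn1a moved so: others read up to 0.28 ± 0.14 for hmga1a in wild types and 0.17 ± 0.14 for hmgn1a in mutants, uncalled. A second probe set of hmgb2b was not called in wild types (-0.25 ± 0.12, adjusted p = 0.131). The genes of this family that rose in wild types were hmgb1a (0.54 ± 0.12, adjusted p = 0.00213) and hmgb1b (0.42 ± 0.10, adjusted p = 0.00502). In mutants these read 0.21 ± 0.12 and -0.01 ± 0.10 and were not called. The brightest probe set of hmgb3a was not called in wild types (0.25, adjusted p = 0.106), but another one was (0.45 ± 0.12, adjusted p = 0.00677). The deacetylase genes hdac1, hdac3 and hdac8 fell in both genotypes, hdac1 by 0.59 ± 0.12 and 0.46 ± 0.12 (adjusted p = 0.00167 and 0.0128). The hdac3 call in wild types ended without any 1 of 5 arrays (up to 0.0883) and the hdac8 call in mutants without mutant replicate 2 at 24 hpf (0.0616). A second probe set of hdac3 read -0.22 ± 0.17 in wild types and -0.26 ± 0.17 in mutants, both uncalled (adjusted p = 0.364 and 0.287). Of Polycomb repressive complex 2, suz12a fell by 0.69 ± 0.12 and 0.41 ± 0.12 (adjusted p = 0.000299 and 0.0168), and ezh2 by 0.35 ± 0.13 and 0.37 ± 0.13 (adjusted p = 0.0452 and 0.0456). These ezh2 calls ended without any 1 of 12 arrays in wild types (up to 0.141) and 10 in mutants (up to 0.158), and without mutant replicate 4 at 48 hpf the change in mutants was -0.24. A second probe set of ezh2 fell in wild types (-0.82 ± 0.25, adjusted p = 0.0186) and read -0.48 ± 0.25 in mutants, and the dimmest one, under the foreign median, was called in neither. The suz12a call in mutants ended without mutant replicate 3 at 24 hpf or 4 at 48 hpf (up to 0.0633).

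The largest fall over the day in wild types was that of ing5b, a subunit gene of acetyltransferase complexes. It read 8.95, 8.59, 8.39 and 8.40 in wild types at 24 hpf and 7.07, 7.10, 7.10 and 7.54 at 48 hpf (-1.38 ± 0.19, adjusted p = 3.89e-05). In mutants it read 8.54, 8.40, 8.13 and 7.80 and then 7.86, 7.56, 7.30 and 7.01 (-0.78 ± 0.19, adjusted p = 0.00609), where the 2 ages overlapped and dnmt3ba, dnmt3bb.2 and prmt3 fell further. The test of the difference, 0.59 ± 0.27, did not pass (adjusted p = 0.379).

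Among the other families, smarcad1a, a remodeller of the SNF2 class, fell in wild types (-0.84 ± 0.17, adjusted p = 0.00129) and read -0.44 ± 0.17 in mutants (adjusted p = 0.0752). Every group mean of smarcad1a lay within the range of the foreign sequences. The ISWI gene smarca5 fell in wild types by 0.67 ± 0.17 (adjusted p = 0.00557) and read -0.22 ± 0.17 in mutants (adjusted p = 0.361). The Polycomb reader cbx2 fell in mutants (-0.70 ± 0.13, adjusted p = 0.000849) and read -0.13 ± 0.13 in wild types (adjusted p = 0.476). Of the bromodomain genes none was called in either genotype by limma on the probe set with the highest mean, where the lowest adjusted p was 0.0603 in wild types and 0.0708 in mutants. Other probe sets of these genes did pass: 2 of brd2a fell in wild types (-0.47 ± 0.16, adjusted p = 0.0376, and -0.31 ± 0.10, adjusted p = 0.0285) and 1 of brd3b fell in mutants (-0.45 ± 0.15, adjusted p = 0.039).

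Of the histones, h2az2b fell in both genotypes (-0.32 ± 0.08, adjusted p = 0.00557, and -0.45 ± 0.08, adjusted p = 0.000576). The gene h2ax rose in mutants (0.41 ± 0.12, adjusted p = 0.0201) and read -0.11 ± 0.12 in wild types. Its call in mutants ended without mutant replicates 2 or 3 at 24 hpf or mutant replicate 2 at 48 hpf (adjusted p up to 0.0709). For hist2h2l the changes over the day were 0.01 ± 0.16 in wild types and 0.26 ± 0.16 in mutants, and neither was called.

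By the probe sets with the highest means, the single gene that rose in both genotypes was the heterochromatin protein gene cbx1b (0.63 ± 0.10, adjusted p = 0.000161, and 0.35 ± 0.10, adjusted p = 0.0161). The second cbx1b call ended without mutant replicate 4 at 24 hpf (adjusted p = 0.056). In wild types smarca2 rose most, from 5.21, 5.73, 5.5 and 5.74 to 6.49, 6.32, 6.04 and 6.38 (0.76 ± 0.17, adjusted p = 0.00277), and ing4 rose by 0.51 ± 0.09 (adjusted p = 0.00058). The HP1 gamma gene cbx3b rose by 0.35 ± 0.10 (adjusted p = 0.0145; ended when the younger wild type replicate 3 was left out, adjusted p = 0.0538). In mutants these 3 genes read 0.36 ± 0.17, -0.08 ± 0.09 and 0.17 ± 0.10 and were not called. A second probe set of smarca2 was called higher in mutants over the day (0.31 ± 0.09, adjusted p = 0.013). Every group mean of cbx1b and smarca2 lay within the range of the foreign sequences.

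**Figure D4:**
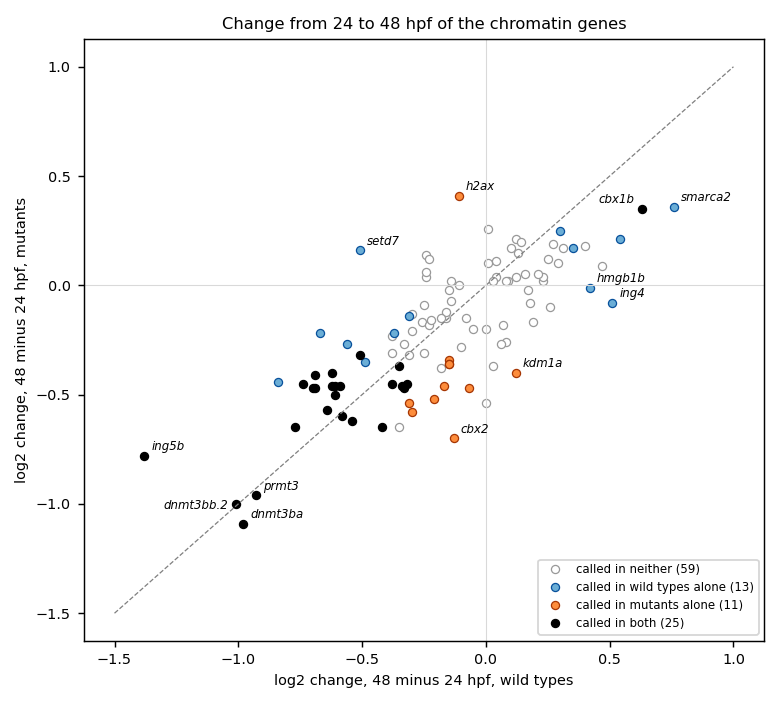
Log2 change from 24 to 48 hpf of each of the 108 genes in wild types (horizontal) and mutants (vertical), with the line of equal change dashed and colours giving the genotype in which the change was called. Most called genes lie to the lower left of the origin, and 24 of the 25 genes called in both genotypes are there. Labelled genes that lie away from the line include ing4, setd7, h2ax, ing5b, cbx2 and kdm1a. Of these, the difference of ing4 passed the test.

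Histone chaperones, which carry and deposit histones, were measured for 20 of 26 listed genes. At each time 6 fell and 1 rose, 30% and 5% of the list, with medians of -0.30 and -0.18, beside 5.08% and 3.61% of all genes at 24 hpf and 8.18% and 9.66% at 48 hpf. Of the falls, those of nap1l1, nasp and npm1a at 24 hpf ended without any 1 of 4, 4 and 8 arrays (adjusted p up to 0.0787, 0.0861 and 0.138), and those of chaf1b, dek and nasp at 48 hpf without any 1 of 5, 2 and 5 (up to 0.114, 0.0649 and 0.0872). The histone mRNA binding gene slbp, needed to process replication histone messages, fell at both times (-0.76 ± 0.17, adjusted p = 0.0102, and -0.89 ± 0.17, adjusted p = 0.00142). At 24 hpf ssrp1a of the FACT complex (-0.75 ± 0.16, adjusted p = 0.00679) and nap1l4a (-0.50 ± 0.11, adjusted p = 0.0114) fell, and nap1l4b rose (0.48 ± 0.12, adjusted p = 0.0179; ended without 1 array, adjusted p = 0.0655). At 48 hpf npm1a, encoding nucleophosmin (-0.69 ± 0.15, adjusted p = 0.00457), and daxx, an H3.3 chaperone (-0.63 ± 0.14, adjusted p = 0.00659), fell, and anp32e, which removes H2A.Z, rose (0.61 ± 0.11, adjusted p = 0.000722). All group means of chaf1b and daxx lay within the range of the foreign sequences.

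Signs of cell division and of cell death moved with the same comparisons. Of 8 measured DNA replication markers, from 9 listed, 4 fell at 24 hpf (median log2 change -0.62) and 5 at 48 hpf (-0.80). As shares these were 50% and 62.5%, beside 5.08% and 8.18% of all genes. The falls of mcm2, mcm6 and pcna at 24 hpf each ended without any 1 of 7 arrays (adjusted p up to 0.103, 0.113 and 0.0895). The summed intensity of the 8 markers was 14100 to 15400 in wild types and 8790 to 10400 in mutants at 24 hpf, and 7940 to 9730 and 4200 to 7950 at 48 hpf. In the time comparisons 6 of 8 fell in wild types and 7 of 8 in mutants (medians -0.72 and -0.80). These were 75% and 87.5%, beside 21.7% and 15.4% of all genes. Of 4 measured p53 response markers, from 5 listed, 1 rose at 24 hpf and 4 rose at 48 hpf (medians 0.43 and 1.57), with summed intensities of 444 to 528 and 495 to 575 at 24 hpf and 363 to 405 and 940 to 1720 at 48 hpf. The p53 response marker called at 24 hpf was bbc3, a call that ended without any 1 of 2 arrays (adjusted p up to 0.056). All group means of bbc3 and casp8 lay within the range of the foreign sequences. In wild types at 48 hpf the mean of bbc3 was below the foreign median. The part of these marker shifts in the falls of dnmt1, uhrf1, baz1b, the prmt genes and the chaperones and in the rise of h2ax was not tested.

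Cell type markers moved as well. Of 4 red cell markers 1 fell at 24 hpf and 3 at 48 hpf, where summed intensities were 20600 to 22700 in wild types and 11300 to 18500 in mutants, and of 3 lens markers 2 and 3 fell (5210 to 6650 against 1310 to 1860 at 48 hpf). In skeletal muscle 0 of 5 and 1 of 5 fell, with sums of 38700 to 42100 and 28400 to 39400 at 48 hpf. In neurons 1 of 5 rose at each time, and in epidermis 0 of 3 and 1 of 3 fell, with sums that overlapped between genotypes at both times. Beside these counts, 5.08% of all genes fell and 3.61% rose at 24 hpf, and 8.18% fell and 9.66% rose at 48 hpf. The fall of the red cell marker hbae3 at 48 hpf ended without any 1 of 9 arrays (adjusted p up to 0.108). The rise of the neuron marker gap43 at 24 hpf ended without any 1 of 3 (up to 0.0738). The part of the cell type markers in the changes of the chromatin genes was not tested.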

How the data were processed

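RNA of 16 embryo pools was hybridized to Affymetrix arrays, 1 pool an array. The deposited table holds linear intensities of probe sets, which the authors normalized; GCOS, RMA and affy are named without versions or order in the submitters' processing notes. The design assumed log2 values, so log2 was taken. From 15617 probe sets, 115 controls were left out and 15502 tested with limma 3.58.1 in R 4.3.3: a mean for each of 4 groups, 5 contrasts, empirical Bayes, two-sided, with Benjamini-Hochberg adjustment. The fit had 12 residual degrees of freedom; the number of arrays limits the precision. P-values measure the spread between pools, since no label says that pools came from separate crosses. The script was tested on simulated data.

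Symbols came from GEO's platform annotation: 10795 probe sets had 1 symbol, 135 several and 4572 none. All 151 chromatin probe sets matched RefSeq by gene identifier. A gene was read from its probe set with the highest mean. Named were all called genes (in the time comparisons the 6 largest each way), every histone, the DNA methyltransferases, Polycomb repressive complex 2 genes, and hdac1, kdm1a, prmt1, smarca4a and smarca5; up to 4 called genes were named for each list of partner genes. Other genes were named after their values were seen, as the ends of a range or as members of a named family. Members, lists and markers were chosen with earlier results of these data known. Alternatives covered scaling, pseudocount, dim probe sets, choice of probe set, variance prior, array weights, arrays in the fit, the replicate block and each array left out. Leaving out 3 arrays together was chosen after seeing the data.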

Additional observations from a re-analysis of the deposited data

Results flagged for a closer look

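In groups of 4 arrays, 1 array stood far from the others (by Dixon's criterion, which chance meets in about 1 in 20 groups) in 12 of 152 groups over 38 genes. For hist2h2l these were wild type replicate 3 at 24 hpf, at 9.16 against 9.11 in each of the others, and mutant replicate 4 at 48 hpf, at 10.83 against 10.30 to 10.38. For histh1l1 they were wild type replicate 1 at 24 hpf, at 11.06 against 11.35 to 11.39, and mutant replicate 4 at 48 hpf, at 11.75 against 11.46 to 11.50. Wild type replicate 1 at 24 hpf also stood apart for kdm1a (9.30 against 9.69 to 9.72), dnmt3bb.2 (6.41 against 5.82 to 5.90) and smarca4a (9.32 against 10.21 to 10.36). At the same age, wild type replicate 3 was apart for dnmt3ba (9.15 against 9.41 to 9.45) and wild type replicate 4 for h2az2b (12.40 against 12.45). At 48 hpf, mutant replicate 2 was apart for hmgn1b (5.38 against 5.0 to 5.05) and h3f3d (10.99 against 11.11 to 11.13), and wild type replicate 4 for ing5b (7.54 against 7.07 to 7.10).

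The genotype change of ing4 differed between the ages by -0.59 on the log2 scale, by the limma test of the difference itself (adjusted p = 0.0347). A second probe set of ing4, at levels below the median of the foreign sequences, gave -0.10 and was not called.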

How the results depend on the processing

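Under 27 alternatives, 31 of 49 called gene results kept their call under all of them, 18 lost it under at least 1, none reversed, and 9 uncalled results changed sign. The 49 held all called results between genotypes and of the difference, and from each time comparison at most the 6 largest each way. Weaker time calls were not counted. Of the counted time results, those of cbx1b and h2ax in mutants and of cbx3b in wild types lost the call. The other losses were all between genotypes or of the ing4 difference. At 24 hpf cbx5, ezh2, histh1l1, sirt2 and smarca5 were uncalled but gained a call under 1 to 3 alternatives each. At 48 hpf chd1, dnmt3bb.3 and h3f3d did so. With array weights, calls at 24 hpf numbered 27 instead of 12, and calls of the difference between the ages 4 (ing4, h2ax, kdm1a and setd7) instead of 1. That difference had 0 calls with the median over the probe sets of a gene, 0 with an intensity trend and robust prior, and 2 without the 3 arrays least like their groups. Leaving out each array in turn gave 6 to 14 calls at 24 hpf, 10 to 19 at 48 hpf and 0 to 1 for the difference. The cause of these shifts was not tested.

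Replicate numbers were not taken to pair the arrays, since not every same-numbered pair correlated: at 24 hpf the correlations were 0.43, -0.31, 0.30 and 0.39, at 48 hpf -0.16 to 0.05, and 6 of 16 arrays were most like their own number. With the replicate block, calls were 17 at 24 hpf (the 12 with cbx1a, cbx3b, chd1l, kdm4c and smarca2), 16 at 48 hpf, 2 for the difference (ing4 and setd7), and 38 and 34 over time. The fit of only the arrays compared was not possible for the difference. Signal over background limits what can be seen for the 49 genes with no group mean above the brightest foreign reading, and most for the 14 below the foreign median.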
